A study of Mus musculus with 18 samples.

Results

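The 10 immediate early genes described here are *Fos*, *Fosb*, *Jun*, *Junb*, *Egr1*, *Ier2*, *Ier3*, *Atf3*, *Socs3* and *Klf6*. They are the rows with these gene names among the 55401 genes of the tables, and all 10 passed the filter on low counts in every comparison. The list was chosen by gene name with earlier results of these data in view, that is, levels and differences between these same pools, so that the differences below describe these genes and are read beside the share of all genes that passed the same test. RNA was sequenced from 18 pools of 150 to 200 thick ascending limbs (TAL), each pool dissected by hand from the liberase-treated kidney of a separate adult male mouse aged 4 to 10 months, of a largely C57BL/6 background and labelled C57BL/6J. Control mice carried a floxed *Cldn10* gene (*Cldn10* fl/fl, WT), and knock-out mice carried the same floxed alleles together with Cre recombinase expressed from the promoter of Ksp-cadherin, active in distal tubules (genotype *Cldn10* fl/fl; Ksp-Cre, cKO). There were 5 pools of WT cortical limbs (WT CTAL), 5 of cKO cortical limbs (cKO CTAL), 5 of WT medullary limbs from the inner stripe (outer medulla, WT MTAL) and 3 of cKO medullary limbs (cKO MTAL), the last from kidneys in which calcium deposits made the dissection difficult. The study asked how far *Cldn10*, which encodes the claudin that lets sodium pass between the cells of the limb, sets the difference between the segments.

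Immediate early genes are transcribed within minutes of a stimulus without any new protein being made, because the factors that switch them on, such as serum response factor with its ERK-activated partners and CREB, are already bound to their promoters and only need to be phosphorylated. Their mRNAs are short-lived, and many of their proteins are transcription factors: members of the Fos and Jun families pair to form AP-1, which binds DNA and passes the signal on to later genes. In kidney tubules they are known to respond to ischaemia, to growth factors and hormones, and to the handling and enzymatic digestion of tissue before RNA is extracted.

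Total estimated counts lay between 10824299 and 62339939 per pool, and *Slc12a1*, which encodes the sodium-potassium-chloride cotransporter that defines the limb, lay between 11477 and 16221 CPM (estimated counts scaled to a common, TMM-normalized library size) in every pool. *Cldn10* was at 386 to 582 CPM in WT CTAL and 656 to 814 CPM in WT MTAL against 157 to 186 CPM in cKO CTAL and 152 to 297 CPM in cKO MTAL. The study retained only cKO pools with lower *Cldn10* than WT, and excluded a cKO CTAL pool whose level resembled WT CTAL. The separation of the genotypes by this gene was thus set by selection and is no check of the groups. The labels of WT CTAL replicate 1 contradict each other, since its title names it as both KO and WT and its genotype field says KO. It was kept in WT CTAL as its own name within the title says. Its *Cldn10* level, 448 CPM, lay within the other WT CTAL pools. As a cKO CTAL pool with a level like WT was also met, this level does not settle its genotype. WT MTAL replicate 11 stood apart from the other 4 WT MTAL pools in most of the genes described here. Results that rest on either pool are given with and without it. *Xist*, which is expressed from an inactive X chromosome, was at 6.5 to 8.8 CPM in 7 pools (cKO CTAL 2, WT CTAL 3 and 22, and WT MTAL 11, 15, 17 and 19) and at or below 0.742 CPM in the other 11, while *Ddx3y*, a Y-linked gene, was at 23.7 CPM or more in every pool. The mitochondrial share of counts was 15.2% to 19.1% in WT CTAL, 10.2% to 15.7% in cKO CTAL, 14.8% to 23.9% in WT MTAL and 11.2% to 15.1% in cKO MTAL.

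The genes are compact, as is typical of genes that must be transcribed quickly. In the GRCm38 (mm10) mouse annotation, 9 of the 10 span at most 10000 bases from start to end of the gene, against 22.9% of the 11451 protein-coding genes tested with all pools. Their median number of exons was 2, against 9 for those genes. *Fos* lies on chromosome 12 from 85473890 to 85477273 and has 4 exons, *Jun* lies on chromosome 4 from 95049034 to 95052222 in a single exon, and *Ier3*, the shortest, spans 1240 bases on chromosome 17 from 35821684 to 35822923. *Atf3* is the exception, with 47744 bases on chromosome 1. The motif ATTTA, which belongs to the AU-rich elements that mark mRNAs for rapid decay, occurred at least 3 times in the 3′ untranslated region of 6 of the 10, against 34.9% of the same tested genes. *Jun*, *Junb* and *Atf3* overlap genes on the opposite strand (*Junos*, *Prdx2* and *Gm24748*), and as the use of strand in the counting is not stated, reads of these neighbours cannot be told apart from theirs.

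Promoter sequences were taken from RefSeq for GRCm38.p6, from 250 bases before to 50 bases after the start that this table takes for each gene. An entry was matched for 8 of the 10 genes. For 6 of them this start lay within 30 bases of the start of the gene in the annotation above, while for *Socs3* it lay 681 bases and for *Atf3* 34706 bases inside the annotated gene, at 85 and 7 bases from the nearest annotated start of a transcript. Both strands were searched. The core of the cAMP response element bound by CREB, TGACG, was found in 4 of the 8 (*Fos*, *Fosb*, *Junb* and *Atf3*), against 20.8% of all 32851 promoters of this length. A site for NF-kappaB was found in *Fos*, *Fosb* and *Ier3*, against 6.93% of all promoters, and a STAT site, TTCNNNGAA, in *Socs3*, against 8.30%. The full cAMP response element TGACGTCA, the AP-1 site TGACTCA and the CArG box of serum response factor had no match in any of the 8 windows, against 1.79%, 5.20% and 1.63% of all promoters. Sites farther from the start were not searched, nor were *Egr1* and *Ier2*, which had no entry. These are matches of letters and not measured binding. Shown are *Fos* and *Fosb*, which moved together in the pools below, *Socs3*, which differed most between the segments of cKO, and *Ier3*, which moved apart from the rest. They are at chr12:85473640-85473939 on the plus strand, chr7:19309996-19310295 on the minus strand, chr11:117969317-117969616 on the minus strand and chr17:35821463-35821762 on the plus strand. Each is written 5′ to 3′ on the strand of its gene, and the capitals mark the NF-kappaB match and then the TGACG cores in *Fos* and *Fosb*, the STAT match in *Socs3* and the NF-kappaB match in *Ier3*.
Fos: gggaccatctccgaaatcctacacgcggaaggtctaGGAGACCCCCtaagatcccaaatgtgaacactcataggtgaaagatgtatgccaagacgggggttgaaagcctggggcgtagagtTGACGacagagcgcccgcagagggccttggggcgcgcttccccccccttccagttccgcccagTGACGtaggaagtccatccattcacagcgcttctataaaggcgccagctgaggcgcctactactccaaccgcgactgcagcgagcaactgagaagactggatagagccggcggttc
Fosb: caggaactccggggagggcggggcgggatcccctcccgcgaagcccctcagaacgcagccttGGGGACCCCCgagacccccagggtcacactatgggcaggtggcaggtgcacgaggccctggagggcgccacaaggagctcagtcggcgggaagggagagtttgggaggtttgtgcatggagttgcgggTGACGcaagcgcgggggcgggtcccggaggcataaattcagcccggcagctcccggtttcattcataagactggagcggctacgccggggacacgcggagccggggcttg
Socs3: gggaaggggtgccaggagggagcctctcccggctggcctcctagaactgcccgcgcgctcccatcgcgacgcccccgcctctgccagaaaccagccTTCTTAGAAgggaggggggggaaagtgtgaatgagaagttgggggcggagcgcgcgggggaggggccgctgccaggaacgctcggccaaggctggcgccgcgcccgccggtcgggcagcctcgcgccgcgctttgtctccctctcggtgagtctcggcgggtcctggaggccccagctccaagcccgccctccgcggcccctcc
Ier3: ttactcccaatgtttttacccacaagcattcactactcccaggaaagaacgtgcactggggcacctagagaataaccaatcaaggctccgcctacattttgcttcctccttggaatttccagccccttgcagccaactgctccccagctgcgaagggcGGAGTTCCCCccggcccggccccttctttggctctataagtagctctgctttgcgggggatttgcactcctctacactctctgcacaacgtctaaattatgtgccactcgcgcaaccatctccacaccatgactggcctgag

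In *Fos* the TGACG cores lie from 129 to 125 and from 66 to 62 bases before the start, and in *Fosb* the core lies from 60 to 56 bases before it. The STAT match of *Socs3* runs from 154 to 146 bases before the start in that table, which puts it inside the gene as annotated, and the NF-kappaB match of *Ier3* runs from 92 to 83 bases before the start. Positions are relative to the start in the RefSeq table, counted as 0.

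Of the AP-1 genes, *Fos* was the most abundant. Per length of transcript, its median lay at 310 TPM in WT CTAL, 173 TPM in cKO CTAL, 388 TPM in WT MTAL and 547 TPM in cKO MTAL, the highest of the 10 genes in each group except cKO CTAL, where *Ier3* had a median of 178 TPM. *Junb* followed, with medians from 113 to 374 TPM, and *Jun* with medians from 83.8 to 201 TPM. *Fosb*, with medians from 16.97 to 58.2 TPM, and *Socs3*, with medians from 14.6 to 59.9 TPM, were at the low end together with *Klf6* and *Atf3*. The lowest median in WT MTAL was that of *Ier3*, 24.1 TPM, and in cKO MTAL that of *Klf6*, 52.3 TPM. Depth was not a limit for these genes, since the lowest level of any of them in any pool was 15.95 CPM.

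*Fos*, which encodes the partner of Jun proteins in AP-1, was at 125.5, 208, 187, 169 and 176 CPM in the cKO CTAL pools (replicates 2, 4, 7, 9 and 21) and at 222, 391, 255, 446 and 504 CPM in the WT CTAL pools (replicates 1, 3, 8, 10 and 22). In WT MTAL it was at 1550.0, 517, 381, 326 and 545 CPM (replicates 11, 13, 15, 17 and 19), and in cKO MTAL at 522, 598 and 652 CPM (replicates 16, 18 and 20). Every cKO CTAL pool lay below every other pool of the study, and WT MTAL replicate 11 lay far above all of them. The order of the group means was WT MTAL, cKO MTAL, WT CTAL and cKO CTAL. The pools of WT MTAL and cKO MTAL overlapped, those of cKO MTAL and WT CTAL did not, nor did those of WT CTAL and cKO CTAL. Without WT MTAL replicate 11, cKO MTAL had the highest mean, and the MTAL groups still overlapped with each other, as did WT MTAL with WT CTAL.

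*Fosb* encodes a further Fos protein that also pairs with Jun. It was at 34.0 to 54.1 CPM in the cKO CTAL pools and at 55.7, 104, 107, 135 and 141 CPM in the WT CTAL pools, of which replicate 1 was the lowest. In WT MTAL it was at 667, 145, 145, 117 and 144 CPM and in cKO MTAL at 122, 189 and 129 CPM. As with *Fos*, the CTAL pools of the genotypes did not overlap, and WT MTAL replicate 11 stood alone.

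*Jun* and *Junb* encode the other side of the AP-1 pair. *Jun* was at 161 to 238 CPM in cKO CTAL, at 223, 385, 258, 409.7 and 476 CPM in WT CTAL, at 1161, 378, 322, 312 and 448 CPM in WT MTAL and at 494, 501 and 458 CPM in cKO MTAL. *Junb* was at 115 to 209 CPM in cKO CTAL, at 170.0, 341, 208, 302 and 381 CPM in WT CTAL, at 943, 399.6, 291, 237 and 465.6 CPM in WT MTAL and at 569, 456 and 534 CPM in cKO MTAL. For both genes, cKO CTAL had the lowest mean, and its pools overlapped with WT CTAL only through replicates 1 and, for *Junb*, 8. *Atf3*, a stress-induced factor of the ATF family that can pair with Jun proteins, was at 15.95 to 28.2 CPM in cKO CTAL, 22.7 to 44.9 CPM in WT CTAL, 36.9 to 57.0 CPM in 4 WT MTAL pools with 267 CPM in replicate 11, and at 55.2, 99.5 and 42.1 CPM in cKO MTAL.

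*Egr1* and *Klf6* encode zinc-finger transcription factors, of which *Egr1* is a classical target of ERK signalling. *Egr1* was at 138 to 239.7 CPM in cKO CTAL, at 219, 438, 257, 415 and 463 CPM in WT CTAL, at 1175, 393, 283, 350.2 and 449 CPM in WT MTAL and at 473, 443 and 515 CPM in cKO MTAL. *Klf6* was at 76.4 to 116 CPM in cKO CTAL, 80.0 to 124.9 CPM in WT CTAL and 124 to 161 CPM in cKO MTAL, with 96.6 to 133 CPM in 4 WT MTAL pools and 299 CPM in replicate 11. Neighbouring groups overlapped for both genes.

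*Ier2* encodes a nuclear protein induced by growth factors, and *Socs3* encodes a feedback inhibitor of JAK and STAT3 signalling. *Ier2* was at 27.8 to 50.7 CPM in cKO CTAL, 49.2 to 122 CPM in WT CTAL, 79.3 to 258 CPM in WT MTAL and 95.6 to 167 CPM in cKO MTAL. *Socs3* was at 20.2 to 29.9 CPM in cKO CTAL and 24.7 to 45.2 CPM in WT CTAL. It was at 316, 74.0, 58.2, 29.0 and 80.1 CPM in WT MTAL and at 80.0, 201 and 119.6 CPM in cKO MTAL, so that the medullary pools were higher in both genotypes apart from WT MTAL replicate 17.

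*Ier3*, which encodes a modulator of apoptosis and ERK signalling, had another pattern. It was at 75.9, 139.6, 148, 94.8 and 307 CPM in cKO CTAL and at 58.1, 63.7, 91.0, 71.4 and 73.0 CPM in WT CTAL. In WT MTAL it was at 43.6, 31.2, 20.8, 20.6 and 17.9 CPM, and in cKO MTAL at 79.1, 78.9 and 144 CPM. Its order was cKO CTAL, cKO MTAL, WT CTAL and WT MTAL, and the WT MTAL pools lay below every other pool of the study. Neighbouring groups overlapped except WT CTAL and WT MTAL.

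**Figure D1:**
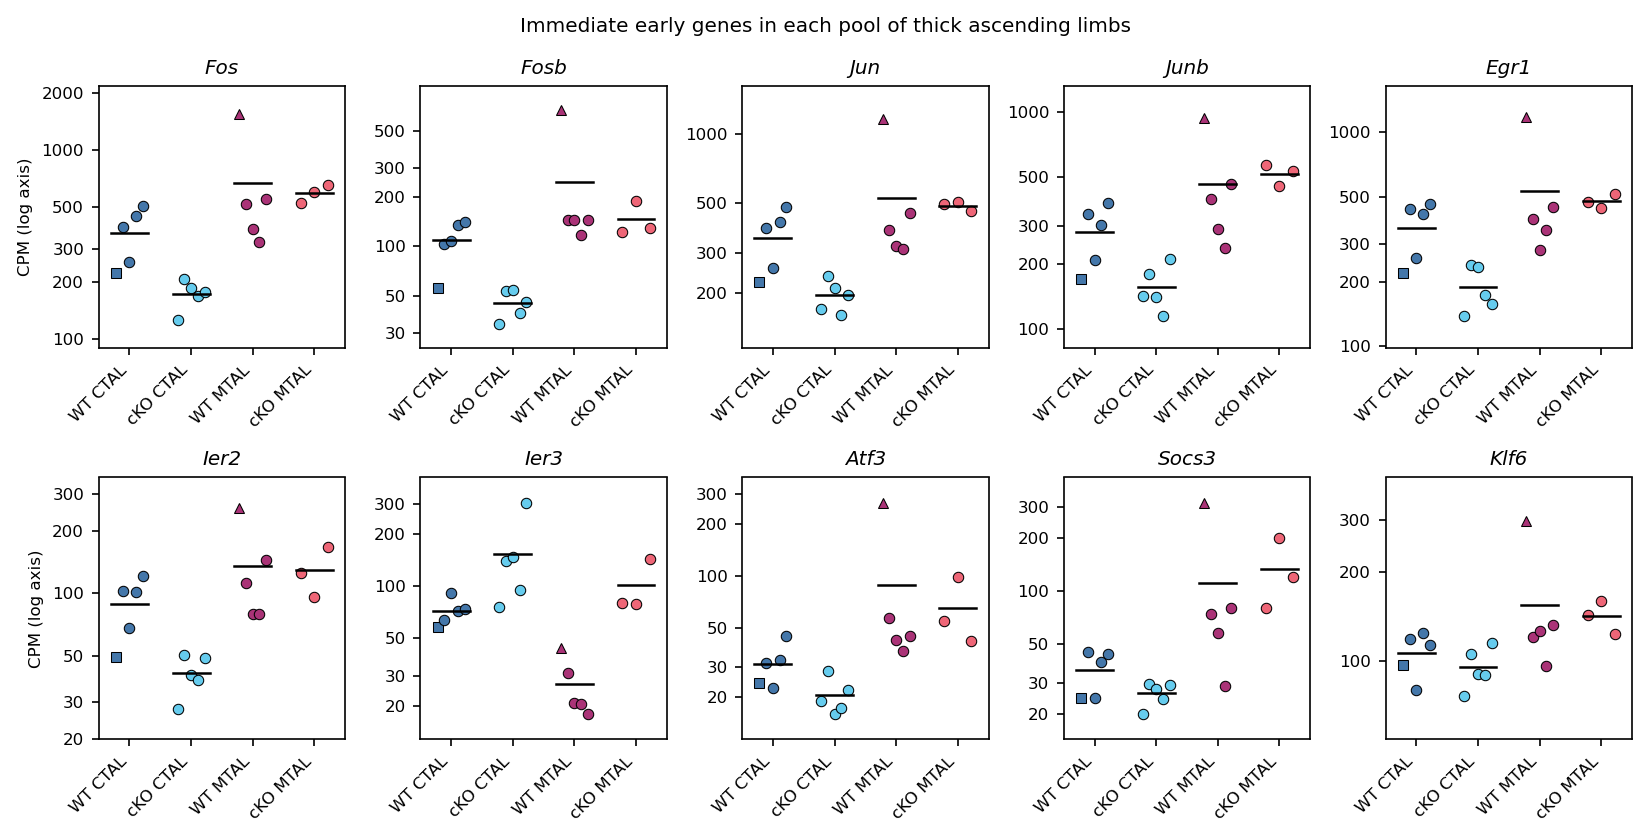
Level of each immediate early gene in each pool (CPM on TMM-normalized library sizes, log axis) for WT CTAL, cKO CTAL, WT MTAL and cKO MTAL. Points are pools, bars are group means, the triangle is WT MTAL replicate 11 and the square WT CTAL replicate 1. For *Fos* and *Fosb* all cKO CTAL points sit below all other points, and for every gene except *Ier3* the triangle sits above all other points, with *Fos* at 1550.0 CPM.

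**Figure D2:**
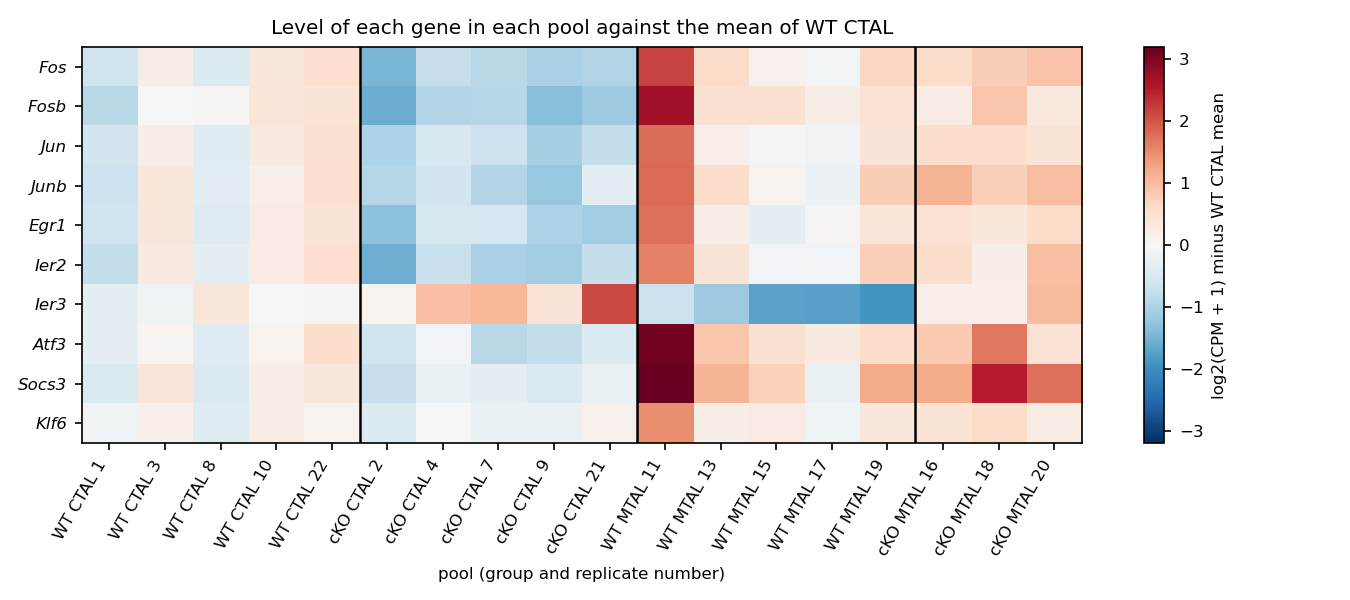
Level of each gene in each pool relative to the mean of WT CTAL, as a difference of log2(CPM + 1) (red higher, blue lower). The cKO CTAL columns are mostly blue except for *Ier3*, for which the WT MTAL columns are blue, and the column of WT MTAL replicate 11 is the reddest.

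The 2 segments of cKO mice differed most. Between cKO MTAL and cKO CTAL, 8 of the 10 genes were higher in MTAL by the quasi-likelihood test of edgeR, which required an adjusted p below 0.05 with a log2 fold change of 1 or more, against 0.623% of the 12044 genes tested that passed in this direction. The AP-1 genes *Fos* (3.498-fold, log2 fold change 1.81 ± 0.15 (SE), adjusted p = 0.000105), *Fosb* (3.31-fold), *Jun* (2.54-fold), *Junb* (3.39-fold) and *Atf3* (3.27-fold) rose together, as did *Egr1* (2.60-fold) and *Ier2* (3.22-fold). *Socs3* had the largest rise, 5.19-fold (log2 fold change 2.38 ± 0.23 (SE), adjusted p = 0.000368), which ranked 15 by size among all genes tested. Its mean was 133 ± 61.5 CPM (SD, n = 3) in cKO MTAL and 26.3 ± 4.03 CPM (SD, n = 5) in cKO CTAL. *Klf6* was higher by 0.61 ± 0.14 (SE) on the log2 scale with an adjusted p of 0.0480, below the fold threshold. By adjusted p alone, 9 of the 10 were thus higher, against 1.12% of all genes. *Ier3* had a log2 fold change of -0.56 ± 0.39 (SE) and did not pass (adjusted p = 0.491). The pools of the groups did not overlap for 9 genes, all but *Ier3*, against 4.20% of all genes with the MTAL pools above. Beside this, the genes of proximal tubule summed to 76.9 to 175 CPM in cKO MTAL against 27.1 to 112 CPM in cKO CTAL, and those of principal cells to 102, 104 and 904 CPM in cKO MTAL, the last in replicate 20, against 79.1 to 252 CPM. The tubular injury genes summed to 2191 to 9100 CPM in cKO MTAL against 1804 to 4906 CPM in cKO CTAL. The dissection of cKO MTAL was made difficult by calcium deposits in the outer medulla, so that segment and dissection cannot be told apart here. The part of these in the result was not tested. Without cKO MTAL replicate 20 the same count of 8 genes passed, as it did without each other pool in turn. In pools of whole tubules, a change in the share of cells of one kind and a change in RNA per cell cannot be told apart.

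The other genes of the immediate early response were examined as lists. Of 18 other immediate early transcription factors, 12 were tested and 3 rose in cKO MTAL over cKO CTAL: *Fosl2*, another Fos protein (2.50-fold, adjusted p = 0.00470), *Klf4* (2.31-fold, adjusted p = 0.0226) and *Myc* (2.37-fold, adjusted p = 0.0415). The median log2 fold change was 0.79, against 0.027 for all genes tested, of which 0.623% passed as higher. Of 32 other immediate early regulators, 31 were tested and 8 rose, with a median of 0.81. Among them were *Ccn1*, a secreted matrix protein (2.31-fold, adjusted p = 0.000818), *Hbegf*, a ligand of the EGF receptor (2.66-fold, adjusted p = 0.000699), *Zfp36*, which binds AU-rich elements and speeds mRNA decay (2.61-fold, adjusted p = 0.00196), and *Ier5* (2.37-fold, adjusted p = 0.00349). None of the 28 tested genes of ERK, JNK and SRF input and feedback passed in edgeR's test, nor did any of 9 of cytokine and STAT3 signalling or 8 of ATF4 and integrated stress, with medians of -0.024, 0.19 and 0.30. Of 11 heat shock genes, the stress-induced chaperones *Hspa1a* (2.57-fold, adjusted p = 0.000436) and *Hspa1b* (2.18-fold, adjusted p = 0.00596) rose. *Hspa1a* and *Hspa1b* are near-identical copies, so that the split of reads between them is uncertain.

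Loss of *Cldn10* in the cortical limb went with lower levels of several of these genes. Between cKO CTAL and WT CTAL, 3 of the 10 were lower, against 0.214% of the 11702 genes tested that passed in this direction: *Fosb* (2.42-fold, log2 fold change -1.28 ± 0.20 (SE), adjusted p = 0.00572), *Fos* (2.12-fold, -1.08 ± 0.20 (SE), adjusted p = 0.0151) and *Ier2* (2.17-fold, -1.12 ± 0.22 (SE), adjusted p = 0.0181). The mean of *Fos* was 173 ± 30.3 CPM (SD, n = 5) in cKO CTAL and 364 ± 121 CPM (SD, n = 5) in WT CTAL. *Egr1* (-0.94 ± 0.21 (SE), adjusted p = 0.0397) and *Jun* (-0.85 ± 0.18 (SE), adjusted p = 0.0334) were lower by an adjusted p under 0.05 without reaching the fold threshold, so that 5 of 10 were lower by adjusted p alone, against 0.564% of all genes. The log2 fold change was -0.85 for *Junb* (adjusted p = 0.0648), -0.61 for *Atf3* (adjusted p = 0.172), -0.45 for *Socs3* (adjusted p = 0.330) and -0.17 for *Klf6* (adjusted p = 0.672). *Ier3* alone had a positive value, 1.08 ± 0.29 (SE), with an adjusted p of 0.0929. The pools did not overlap for *Fos* and *Fosb*, against 1.24% of all genes with cKO CTAL below.

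WT CTAL replicate 1 was the lowest WT CTAL pool for 7 of the 10 genes, among them *Fos* at 222 CPM against 255 to 504 CPM in the other 4. Without it, 4 genes passed, *Egr1* in addition, against 0.267% of all genes in this direction, with log2 fold changes of -1.22 for *Fos* and -1.45 for *Fosb*, and the same 4 passed when it was counted as cKO CTAL. Without WT CTAL replicate 10, or without replicate 22, 1 gene passed. In one fit of all 18 pools, 0 of the 10 passed. Markers moved with this comparison too: the 9 endothelial genes summed to 243 to 356 CPM in cKO CTAL and 287 to 605 CPM in WT CTAL, and all 9 had negative log2 fold changes, with a median of -0.56. The mitochondrial share was also lower in cKO CTAL, as given above, and the tubular injury genes summed to 1804 to 4906 CPM in cKO CTAL against 1426 to 1697 CPM in WT CTAL. Their part in the lower levels was not tested.

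Of the other immediate early transcription factors, 1 of 11 tested passed between cKO CTAL and WT CTAL: *Myc*, a driver of cell growth, was lower (2.25-fold, adjusted p = 0.0152). Of all genes tested, 0.214% passed as lower. None of the 30 other immediate early regulators tested passed in edgeR's test, with 25 of the 30 negative and a median of -0.28, against 0.0026 for all genes. The lists of ERK, JNK and SRF input and feedback, cytokine and STAT3 signalling, ATF4 and integrated stress and heat shock had no gene that passed, with medians between -0.077 and -0.011.

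The normal segments differed in few of these genes. Between WT MTAL and WT CTAL, *Socs3* was higher in MTAL (3.12-fold, log2 fold change 1.64 ± 0.46 (SE), adjusted p = 0.0431) and *Ier3* lower (2.68-fold, -1.42 ± 0.21 (SE), adjusted p = 0.000333), so that 2 of 10 passed, against 2.32% of the 11650 genes tested. *Ier3* averaged 26.8 ± 10.6 CPM in the medullary and 71.4 ± 12.5 CPM in the cortical pools (SD, n = 5 each), which did not overlap, against 4.32% of all genes with MTAL below. The other 8 had positive log2 fold changes from 0.54 (*Klf6*) to 1.52 (*Atf3*, adjusted p = 0.0601) and did not pass. Much of these values came from WT MTAL replicate 11. Without it the log2 fold change was 0.28 for *Fos*, 0.057 for *Jun*, 0.039 for *Egr1*, 0.55 for *Atf3* and 0.76 for *Socs3* (adjusted p = 0.102), and *Ier3* alone passed, at -1.66 ± 0.17 (SE), against 2.35% of all genes. The comparison of WT segments therefore held *Ier3* with and without this pool, and *Socs3* passed only with it. *Socs3* was also lost without each of the 5 WT CTAL pools in turn and without WT MTAL replicate 19. Beside this, the tubular injury genes summed to 1070.5 to 1321 CPM in WT MTAL and 1426 to 1697 CPM in WT CTAL, and those of immune cells to 122 to 183 CPM and 178 to 225 CPM, with 4 of the 8 tested immune genes lower in WT MTAL by adjusted p and 1 higher. The genes of proximal tubule summed to 82.6 to 162 CPM in WT MTAL and 42.2 to 116 CPM in WT CTAL. Their part in the levels of *Ier3* and *Socs3* was not tested.

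Of the other lists, *Phlda1* (2.22-fold, adjusted p = 0.0110) and *Ppp1r15a*, a phosphatase subunit of the stress response (2.06-fold, adjusted p = 0.0401), rose in WT MTAL over WT CTAL among 30 other immediate early regulators tested, and *Chac1*, a target of ATF4 (3.79-fold, adjusted p = 0.00198), among 9 genes of ATF4 and integrated stress. Of all 11650 genes tested, 2.32% passed in either direction. None of the other immediate early transcription factors tested (11), of the ERK, JNK and SRF genes (26), of the cytokine and STAT3 genes (9) or of the heat shock genes (11) passed in edgeR's test. Without WT MTAL replicate 11, *Phlda1* passed of the 3 genes named, and *Nr4a1*, an orphan nuclear receptor, passed as lower in WT MTAL, against 2.35% of all genes in either direction.

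In the medullary limb, loss of *Cldn10* went with a higher level of *Ier3*. Between cKO MTAL and WT MTAL it rose 3.78-fold (log2 fold change 1.92 ± 0.26 (SE), adjusted p = 0.000393), from a mean of 26.8 ± 10.6 CPM (SD, n = 5) to 101 ± 37.7 CPM (SD, n = 3), and its pools did not overlap, against 6.82% of all genes with cKO MTAL above. It was the only one of the 10 that passed, against 3.74% of the 12060 genes tested. The other 9 had log2 fold changes from -0.72 (*Fosb*) to 0.27 (*Socs3*). The spread of WT MTAL was wide with replicate 11, with an SD of *Fos* of 504 CPM around a mean of 664 CPM. Without it, all 9 were positive, from 0.10 (*Fosb*) to 1.16 (*Socs3*, adjusted p = 0.0471), so that *Socs3* and *Ier3* passed, against 3.19% of all genes. *Fos* was then at 0.42 ± 0.17 (SE) with an adjusted p of 0.155. The endothelial genes summed to 191 to 329 CPM in cKO MTAL and 348 to 546 CPM in WT MTAL, and the tubular injury genes to 2191 to 9100 CPM against 1070.5 to 1321 CPM. All 6 principal cell and all 5 intercalated cell genes tested had positive log2 fold changes, with medians of 1.71 and 1.86. Their sums were highest, at 904 and 251 CPM, in cKO MTAL replicate 20, which also had the highest *Ier3* of its group. The mitochondrial share was mostly lower in cKO MTAL, as given above. *Xist* was at 7.37 to 8.80 CPM in WT MTAL replicates 11, 15, 17 and 19 and at 0.487 CPM in replicate 13. In the cKO MTAL pools it was at 0.444 to 0.715 CPM, so that its level mostly went with genotype in this comparison. The part of these differences in the level of *Ier3* was not tested.

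Among the related genes, *Cebpb*, a transcription factor of the acute phase response, rose in cKO MTAL over WT MTAL (2.57-fold, adjusted p = 0.00926, 1 of 13 tested), as did *Sik1*, a kinase induced by cAMP (2.40-fold, adjusted p = 0.00879, 1 of 31 tested). *Rps6ka5*, a kinase that phosphorylates CREB, fell (2.57-fold lower, adjusted p = 0.0326, 1 of 27 tested), and so did *Chac1* (3.95-fold lower, adjusted p = 0.0138, 1 of 9 tested). Of all 12060 genes tested, 3.74% passed in either direction, so that 1 of 31 and 1 of 27 lie near the share of all genes. None of the 9 cytokine and STAT3 genes and none of the 11 heat shock genes passed in edgeR's test. By adjusted p alone, 1 of these 9, *Stat3*, was higher (1.84-fold, adjusted p = 0.00205), against 4.44% of all genes in this direction. Of the 9, 6 had positive and 3 negative log2 fold changes. Without WT MTAL replicate 11, *Nr4a1* and *Cebpd* among the transcription factors and *Id2* among the regulators passed as higher in addition. The share of all genes that passed was then 3.19%, in either direction.

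**Figure D3:**
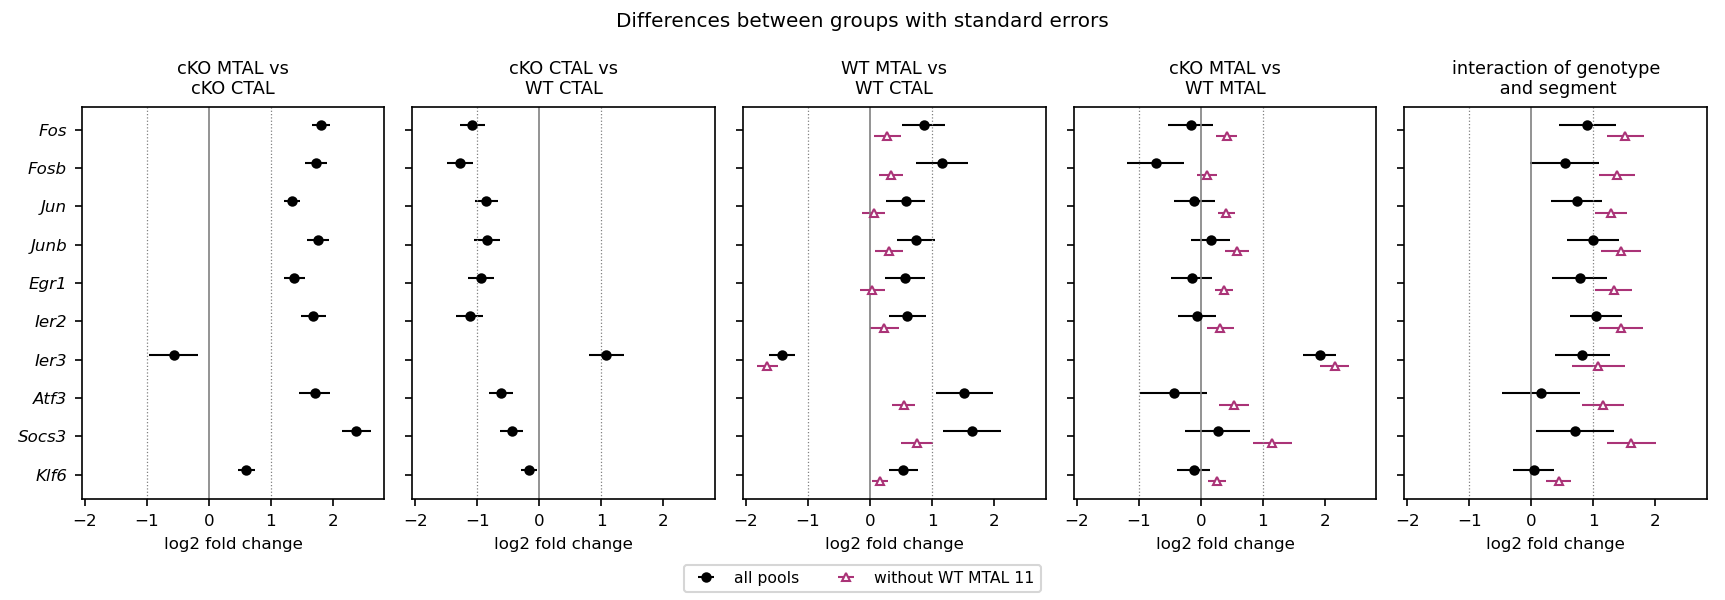
Log2 fold change with its standard error for each gene in the 4 comparisons and for the interaction of genotype and segment, with all pools (black circles) and, where WT MTAL enters, without WT MTAL replicate 11 (open triangles). Dotted lines mark log2 fold changes of -1 and 1. In cKO MTAL against cKO CTAL, 9 of 10 genes lie to the right of 0, and leaving out replicate 11 moves the points of *Fos* from -0.16 to 0.42 in cKO MTAL against WT MTAL.

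Whether the effect of genotype differed between the segments was tested as an interaction in one fit of all 18 pools and 12586 genes. None of the 10 passed in edgeR's test, against 0.230% of all genes, and 2 had an unadjusted p under 0.05, against 14.7% of all genes, *Ier2* (1.05 ± 0.42 (SE), adjusted p = 0.242) and *Junb* (0.99 ± 0.42 (SE), adjusted p = 0.272). All 10 values were positive, from 0.038 (*Klf6*) to 1.05, meaning a higher level in cKO relative to WT in MTAL than in CTAL. This test rested on WT MTAL replicate 11. Without it 5 genes passed, *Fos* (1.51 ± 0.30 (SE), adjusted p = 0.0259), *Jun* (adjusted p = 0.0281), *Fosb* (adjusted p = 0.0363), *Junb* and *Egr1* (both adjusted p = 0.0477), against 0.375% of all genes. Without WT CTAL replicate 1 as well, *Ier2* passed in addition, against 0.255% of all genes (these shares of genes that passed count both directions). DESeq2 and limma, run with all pools, also called none. Of the other lists, 0 genes of the immediate early transcription factors, regulators, ERK, JNK and SRF, cytokine, ATF4 or heat shock groups passed with all pools, and *Hbegf* passed without replicate 11.

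Within groups, the pools that were high for *Fos* were high for most of the other genes. Values of log2(CPM + 1) were centred on the mean of each group, so that genotype and segment did not enter, and correlated over the 18 pools with permutation of pools within groups. *Fos* correlated with *Jun* (Pearson's r = 0.966, Spearman's rho = 0.913, permutation p = 2.0e-05 and 0.00021), *Egr1* (r = 0.951, rho = 0.909), *Ier2* (r = 0.923, rho = 0.917), *Fosb* (r = 0.915, rho = 0.835), *Socs3* (r = 0.911, rho = 0.876), *Junb* (r = 0.9003, rho = 0.806), *Klf6* (r = 0.884, rho = 0.756) and *Atf3* (r = 0.847, rho = 0.690). For these 8 pairs the permutation p adjusted over the 9 pairs was at most 0.00209 for r and 0.00872 for rho. Without the pools farthest from the median of *Fos*, WT MTAL 11 and cKO CTAL 2, r was 0.922 for *Jun*, 0.880 for *Ier2* and 0.866 for *Egr1*, and fell to 0.580 for *Atf3* and 0.626 for *Klf6*. *Ier3* was the weakest, with r = 0.485 and rho = 0.488 (adjusted permutation p = 0.0253 and 0.0265), and r was 0.117 without those pools, so that its relation to *Fos* rests on them. Over the 36 pairs of the 9 genes other than *Ier3* the median r was 0.883, and 0.670 without WT MTAL 11. Over the 9 pairs with *Ier3* it was 0.452, and 0.209 without that pool. The values of a pool share its library, depth and dissection.

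**Figure D4:**
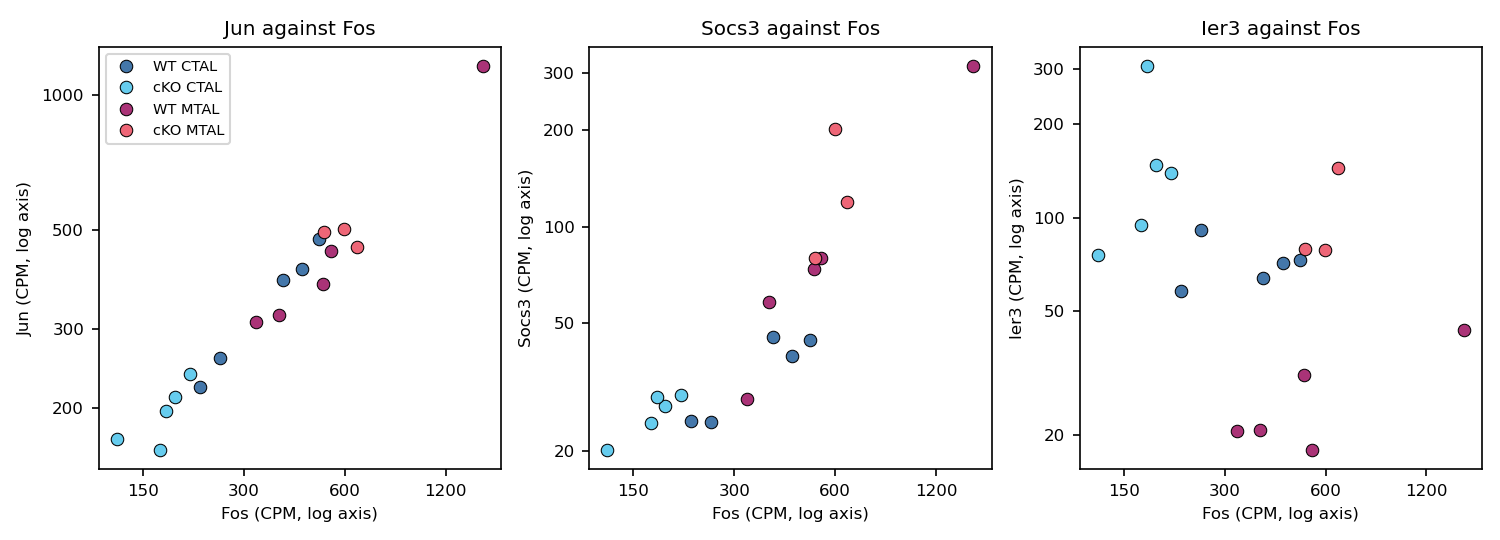
*Jun*, *Socs3* and *Ier3* against *Fos* in the 18 pools (CPM, log axes), coloured by group. *Jun* follows *Fos* across all groups, the highest *Fos* pool (1550.0 CPM) also has the highest *Socs3* (316 CPM), and *Ier3* has its highest pool (307 CPM) in cKO CTAL, the group in which *Fos* is lowest, although its cKO CTAL and cKO MTAL pools overlap.

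The genes whose centred levels were most like the mean of the 10, among 12576 others over the 18 pools, were *Zfp36* (r = 0.976), *Ppp1r15a* (0.931), *Csrnp1* (0.914), *Nfkbiz* (0.904), *Klf2* (0.887), *Btg2* (0.876), *Rhob* (0.864), *Fzd2* (0.860), *Traf4* (0.849) and *Rrad* (0.844). Of these, 6 are in the lists of other immediate early transcription factors and regulators. Without WT MTAL replicate 11 the first 4 were *Zfp36* (0.956), *Ppp1r15a* (0.885), *Btg2* (0.827) and *Dusp1* (0.826), which are in the list of regulators. The next 6, *Ddx54* (0.803), *Hoxa5* (0.790), *Mprip* (0.780), *Sptan1* (0.754), *Vps18* (0.753) and *Hspg2* (0.750), are in none of the lists. These likenesses are descriptions over the pools and were not tested.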

How the data were processed

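Poly-A mRNA of 18 pools was sequenced with a strand-specific kit. The authors checked reads with FastQC, trimmed them (fastp in the study's methods, Trimmomatic in the submitters' processing notes), mapped them to mm10 and quantified genes with DRAGEN. The deposited estimated counts are not normalized, and the deposited TPM values are scaled for transcript length and to the same total in each pool. Use of strand and treatment of multiply mapped reads are not given in the sources used here.

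Estimated counts were rounded. After filtering for 3 CPM or more in 5 or more pools (3 or more if cKO MTAL was included) and TMM scaling, the quasi-likelihood F test of edgeR 4.0.16 (R 4.3.3) was run on the pools of the groups compared, and p-values were adjusted by Benjamini-Hochberg over all genes tested. Genes passed at an adjusted p below 0.05 with a log2 fold change of 1 or more in size. The interaction was fitted over all 18 pools. Alternatives used DESeq2 (version 1.42.0), limma (version 3.58.1) on log2(TPM + 0.5) or log2(TPM + 0.1), other scalings and filters, and each pool left out in turn. Correlations used 100000 permutations within groups, 2-sided. The scripts were tested on simulated data with known changes. Pools come from separate animals, and every replicate pair differed by more than sampling noise.

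The members and lists were chosen with earlier results of these data known. All 10 genes are named. From other lists, up to 4 genes that passed are named by adjusted p, and the 10 genes most like the members by correlation. The alternative without both WT MTAL replicate 11 and WT CTAL replicate 1 was chosen after seeing the data.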

Additional observations from a re-analysis of the deposited data

Results flagged for a closer look

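A single pool, WT MTAL replicate 11, was set apart from the other 4 WT MTAL pools in 7 of the 10 genes by Dixon's criterion, in which the gap to the nearest pool is compared with the whole range of the group. *Fos* was at 1550.0 CPM there, *Fosb* at 667 CPM, *Jun* at 1161 CPM, *Egr1* at 1175 CPM, *Atf3* at 267 CPM, *Socs3* at 316 CPM and *Klf6* at 299 CPM. These were 3.503, 4.85, 3.18, 3.19, 5.87, 5.24 and 2.51 times the mean of the other 4 pools. *Junb* (2.71 times), *Ier2* (2.48 times) and *Ier3* (1.93 times) were also highest in this pool within WT MTAL and were not set apart by the criterion. In all, 30 tests were made over the 3 groups of 5 pools, and the 7 set apart were all in this pool. For normally distributed values, chance would set apart about 1 in 20. The criterion was applied to CPM without a log scale, and whether that rate holds for such values was not checked. The genes are correlated over pools, so that the 7 are not independent. In the same pool the endothelial genes summed to 546 CPM, the highest of WT MTAL, the principal cell genes to 286 CPM, also the highest, the mitochondrial share was 19.04%, within the group, and *Slc12a1* was within 14892 to 16221 CPM like the rest. The part of these in its immediate early genes was not tested.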

How the results depend on the processing

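The 8 genes that passed between cKO MTAL and cKO CTAL numbered 8 without each pool in turn, and that number stayed within 1.5 times under every alternative run, as did the number of genes correlated with *Fos*, 9 with all pools and 8 to 9 without each pool in turn. The relation of *Fos* to *Ier3* was lost without cKO CTAL replicate 2 (r = 0.437) and without WT MTAL replicate 11 (r = 0.280). Of the 3 genes that passed between cKO CTAL and WT CTAL, 1 passed with limma at either pseudocount, 0 in one fit of all pools with or without *Xist* as covariate, 5 without a fold threshold, and 1 to 4 without each pool in turn. Between WT MTAL and WT CTAL, where 2 passed, 4 passed in edgeR's likelihood ratio test and 1 in the likelihood ratio test of DESeq2 with TMM factors, with limma at either pseudocount, with *Xist* as covariate, with WT CTAL pool 1 counted as cKO CTAL and without WT MTAL replicate 11 and WT CTAL replicate 1 together, with 1 to 3 without each pool in turn. Between cKO MTAL and WT MTAL it was 1 to 2 without each pool in turn. The interaction had 0 to 5 without each pool in turn and 6 without both pools together. The cause of these changes was not tested.

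Directions turned mostly between cKO MTAL and WT MTAL. There the log2 fold change of *Ier2* was 0.022 with total counts. With limma on log2(TPM + 0.5) it was 0.27 for *Fos*, 0.22 for *Jun*, 0.22 for *Egr1*, 0.14 for *Ier2* and 0.22 for *Klf6*, and the same to 2 decimals with log2(TPM + 0.1), at 0.27, 0.22, 0.22, 0.14 and 0.22. With *Xist* as covariate it was 0.12 for *Jun*, 0.037 for *Egr1* and 0.079 for *Ier2*. Without each pool in turn it ranged from -0.33 to 0.42 for *Fos*, -0.95 to 0.10 for *Fosb*, -0.24 to 0.42 for *Jun*, -0.30 to 0.38 for *Egr1*, -0.28 to 0.32 for *Ier2*, -0.87 to 0.54 for *Atf3*, -0.24 to 0.26 for *Klf6*, -0.14 to 1.16 for *Socs3* and -0.0045 to 0.58 for *Junb*. Between WT MTAL and WT CTAL, *Jun* was at -0.072 and *Egr1* at -0.098 without WT MTAL replicate 11 and WT CTAL replicate 1 together, the lowest of ranges that reached 0.72 for both genes without other pools. In the interaction, *Klf6* was at -0.00698 without a filter on low counts. Without each pool in turn or those 2 together, *Klf6* ranged from -0.074 to 0.47 and *Atf3* from -0.26 to 1.24. No paired analysis was made. The WT mice were littermates of the cKO mice, but which pools came from the same litter is not given, and the groups share no replicate numbers.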
